A study of Gallus gallus with 6 samples.

Results

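Of 7621 regions that differed in CG methylation between epithelial and fiber cells of the chick lens, 491 lay in a CpG island or its shore and outside any annotated gene. These intergenic island and shore regions were chosen by annotation alone. A region was kept when the deposited annotation placed it in an island or a shore and listed for it no promoter, transcription start site, untranslated region, exon, intron or transcription end site. The rule used no methylation levels, although each region had been called on a methylation difference and earlier results of these data were known.

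The regions come from whole genome bisulfite sequencing of White Leghorn embryos at embryonic day 13, in which the share of methylated cytosine at CG sites (the mCG level) was measured. Lenses were microdissected into lens epithelial cells and lens fiber cells, and the cells of 25 lenses were pooled for each biological replicate. There were 3 replicates of each cell type and no treatment. Epithelial cells are the undifferentiated front layer of the lens, from which the elongated fiber cells arise. Each sample is therefore a pool of dissected cells from many animals, and a table of methylation levels offers no expression marker with which to check the dissection.

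CpG islands are stretches of vertebrate DNA that have kept a high density of CG sites, whereas most of the genome has lost them. Many islands sit at promoters and are unmethylated, but others lie away from annotated promoters, where their methylation varies more between tissues. Shores are the less dense flanks of islands, and in mammals they are known as places where methylation differs between cell types.

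Each differentially methylated region (DMR) is listed with the authors' mean mCG level in either cell type, taken over its replicates. All levels below are these means. Levels of single replicates and read numbers were not analysed here, so the depth behind each level is unknown here and no level carries an SD. The authors' model tested CG sites between the replicates of both cell types, and significant sites were joined into DMRs. A DMR could also hold sites that did not pass, and its mean change was not itself tested against the replicate variation. Some changes are given with a single-site error, the rough standard error of the change at 1 CG site, obtained as the change over the mean test statistic per site. Over the 491 DMRs this error ranged from 1.04 to 5.03 percentage points, with a median of 3.22. It is the error of a site among those selected for a large statistic and not that of a whole region. Shares and medians below are descriptions, set beside the same values over all DMRs, with no test of their difference.

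The annotation limited where such DMRs could be found. The table holds DMRs on 34 chromosomes, but island and shore annotations occurred on 17 of them, chromosomes 7 to 23. On the other 17 chromosomes none of 3657 DMRs carried an island or shore annotation, and 145 DMRs there lay outside genes. The 491 DMRs are thus those of chromosomes 7 to 23, and the 3964 DMRs of these chromosomes are the closer background.

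The island label was checked against the density of listed CG sites. The median was 18.0 sites per 100 bp in the 117 DMRs annotated to an island only, 14.3 in the 134 annotated to both island and shore, and 10.3 in the 240 annotated to a shore only. All DMRs of chromosomes 7 to 23, island and shore ones included, had a median of 10.7. On these chromosomes the median was 8.60 in gene DMRs without an island or shore. It was 10.2 in repeat DMRs outside genes and away from islands. The densities thus followed the labels, with shore DMRs denser than gene DMRs away from islands but close to the repeat DMRs. Of the 240 shore DMRs, 69 had a DMR in an island less than 2 kb away, and for 12 of these that island DMR was annotated to a gene.

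The regions were short. Their median length was 214 bp, from 55 bp to 3249 bp, and together they covered 136704 bp. They held 12 to 157 listed CG sites each, with a median of 28. This number was even in 64.2% of the DMRs and in 68.4% of all DMRs of the table. Whether a CG site was listed once or once per strand cannot be told from these shares. The number was even in 51.3% of island DMRs, 55.2% of DMRs of both and 75.4% of shore DMRs. The highest density was 42.4 listed sites per 100 bp in this set and 50.9 over all DMRs of the table. With each site listed once, the latter would need an almost unbroken CG repeat. Which way of listing was used was not tested. Counts and densities are therefore given per listed site.

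Most intergenic island and shore DMRs were more methylated in fiber cells. A higher level in fiber cells (a gain) was listed for 396 DMRs, or 80.7%, against 86.6% of all DMRs of the table and 86.5% of those on chromosomes 7 to 23. A lower level (a loss) was listed for 95 DMRs, or 19.3%, against 13.4% and 13.5%. Losses therefore took a somewhat larger share here than over the DMRs at large, a difference that was not tested. Leaving out the 10 losses around SOX2 described below raised the share of gains to 82.3% of 481.

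The annotation classes were alike in this. Gains made up 82.9% of shore DMRs, 79.1% of DMRs in both island and shore and 77.8% of island DMRs. Island or shore DMRs inside gene bodies were gains in 90.5% of 1062, and those at promoters in 87.0% of 346. Repeat DMRs outside genes and away from islands were gains in 89.1% of 64 on chromosomes 7 to 23. The intergenic island and shore DMRs had the lowest share of gains among these classes.

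The changes were modest in size. Gains went from a median of 25.5% in epithelial cells to 46.9% in fiber cells, and the median of their changes was 19.1 percentage points, with quartiles of 15.2 and 22.6. Over all DMRs of chromosomes 7 to 23 the median gain was 21.2 points. It was 18.9 points in island or shore DMRs of gene bodies and 16.9 points in those at promoters. The smallest gain was 4.01 points and the largest 43.6 points.

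Losses went from a median of 42.4% in epithelial cells to 18.7% in fiber cells. Their median change was -17.7 points, with quartiles of -22.8 and -14.2. The median loss over all DMRs of chromosomes 7 to 23 was -26.5 points, from 53.5% to 21.4%. Losses at intergenic islands and shores thus started lower and were smaller than losses at large, while their fiber levels were close to those of other losses. In island or shore DMRs of gene bodies the median loss was -24.1 points, from 52.4% to 24.1%. At promoters it was -20.6 points, from 44.5% to 18.9%. Over all 970 DMRs annotated to an island, intergenic ones included, it was -15.0 points, from 32.1% to 17.6%.

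**Figure D1:**
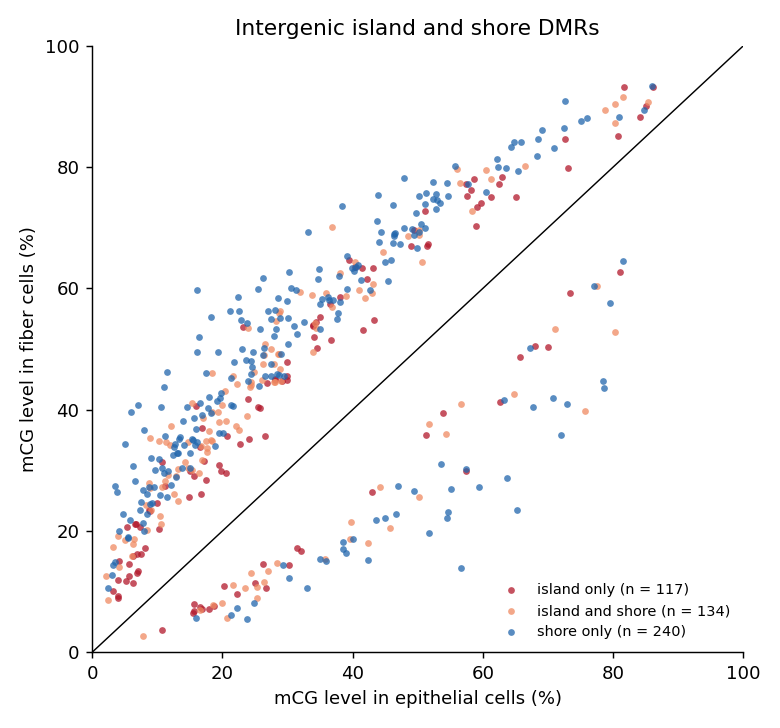
mCG level of each of the 491 intergenic island and shore DMRs in fiber cells (vertical axis, percent) against epithelial cells (horizontal axis, percent), coloured by annotation class, with a line of equal levels. The 396 gains lie above the line and the 95 losses below it. In both directions the shore DMRs (blue) lie farther from the line in the median than the island DMRs (red), with overlap between the classes.

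The size of the change followed the annotation class. The median gain was 14.6 points in island DMRs, 18.0 points in DMRs of both and 21.3 points in shore DMRs. The median loss was -14.2, -15.99 and -22.5 points in the same order. A change of at least 20 points was seen in 14.5% of island DMRs, 33.6% of DMRs of both and 62.1% of shore DMRs. In all, 211 of the 491 DMRs (43.0%) changed by that much, against 59.5% of all DMRs and 58.5% of those on chromosomes 7 to 23. The share was 43.4% in island or shore DMRs of gene bodies and 33.2% in those at promoters.

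Among the listed DMRs, dense ones thus changed less than sparse ones. Spearman's rho between CG density and the size of the change was -0.623 over the 491 DMRs, and Pearson's r was -0.614. Over the 3964 DMRs of chromosomes 7 to 23 the same rho was -0.689, so the relation was not confined to intergenic islands. The error at a single site was smaller in island DMRs as well, with a median of 2.66 points against 3.53 points in shore DMRs. Its rho with the size of the change was 0.819. That rho is partly built in, since the error is the change divided by a test statistic that had to be large for a call. The part of this error in the sizes of the called changes was not tested. The listing bears on the relation with density too. The test statistic summed over the sites of a DMR had a smallest absolute value of 93.0 here and 92.6 over all DMRs of the table. A DMR with few sites was thus listed only with a larger statistic per site. Shore DMRs had a median of 22 listed sites and island DMRs 35. How far this shaped the density relation and the class differences was not tested. The DMRs share libraries, and both the change and the density come from the boundaries the authors drew. These values are therefore given as a description.

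**Figure D2:**
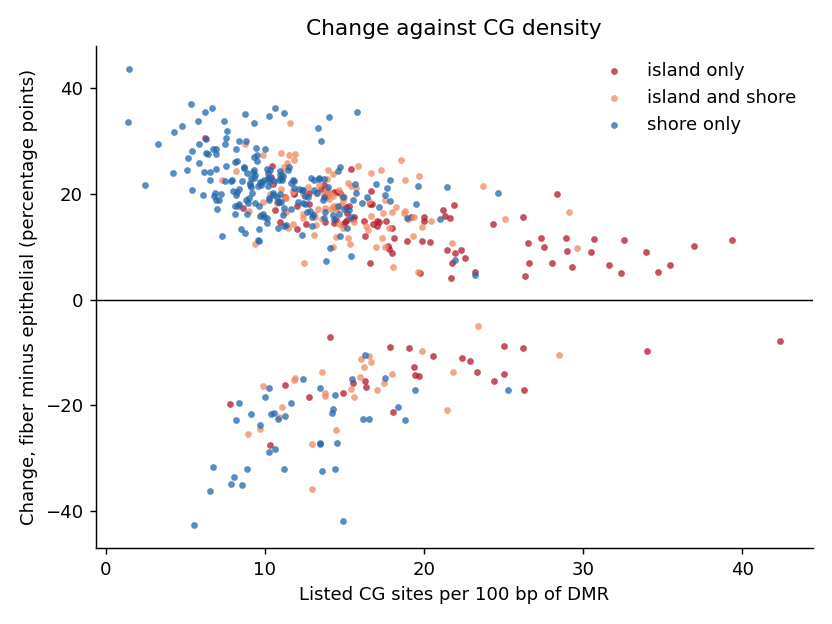
Change in mCG level, fiber minus epithelial (vertical axis, percentage points), against CG density (horizontal axis, listed sites per 100 bp) for the 491 DMRs, coloured by annotation class. Changes narrow toward high density in both directions, with a Spearman's rho of -0.623 between density and the size of the change.

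Gains and losses differed in density in the opposite sense to the table at large. Among the intergenic island and shore DMRs, losses had a median of 14.5 listed sites per 100 bp (14.3 without the 10 losses around SOX2) and gains one of 12.9. Over all DMRs of chromosomes 7 to 23 losses had 10.3 and gains 10.7. The sense seen here was also that of all 970 DMRs annotated to an island, intergenic ones included, with 17.98 in losses and 15.8 in gains. In island or shore DMRs of gene bodies losses had 11.9 and gains 13.2, and at promoters 13.8 and 14.5. These differences were not tested.

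Few of these regions passed from an unmethylated to a methylated state. With levels grouped as under 20%, from 20% to 50% and at least 50%, edges chosen after the values were seen, 126 gains rose from the lowest group to the middle and 106 from the middle to the highest. Only 3 gains went from under 20% to at least 50%, which is 0.758% of gains against 2.33% over all DMRs of chromosomes 7 to 23. Another 70 gains were already at 50% or more in epithelial cells.

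Among the losses, 35 fell from the middle group to under 20% and 26 from the highest group to the middle. From the highest to the lowest group went 2 losses, or 2.11%, against 9.51% of all losses on these chromosomes. An epithelial level under 10% was listed for 67 of the 491 DMRs (13.6%), close to the 11.5% of DMRs at large. Since these are means over pooled cells, a change of part of the cells and a partial change in all of them cannot be told apart.

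The 8 largest gains and the 8 largest losses were nearly all shore DMRs, 15 of 16. The largest gain lay at chr9:9522491-9523662 (galGal6, as are all positions), in a shore that also holds a repeat. It went from 16.1% to 59.7%, a change of 43.6 points with a single-site error of 5.03, over 17 listed sites in 1172 bp. In the same run, at chr9:9527303-9530551, was the longest of the 491 DMRs with 3249 bp, which rose from 5.92% to 39.5% over 46 listed sites. This pair was the sparsest of the set, with densities of 1.45 and 1.42 sites per 100 bp.

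The next gains in size were at chr11:19382534-19383112, from 18.3% to 55.2%, and at chr18:9704797-9705210, from 33.1% to 69.4%. The chromosome 11 gain stood beside another at chr11:19383344-19384095, which rose from 36.8% to 70.2% over 87 sites. The others of the 8 were on chromosome 23, with 36.3 points, chromosome 10, with 35.6, chromosome 21, with 35.2, and chromosome 9, with 35.4 at chr9:16180591-16180742 and 35.1 at chr9:16136793-16136998. All 8 began between 16.1% and 38.3%, so the largest gains started from low or middle levels.

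The last of these lay 4182 bp from a DMR at the promoter of EPHB3 (ENSGALG00000008537), a receptor tyrosine kinase for ephrins. That promoter DMR rose from 7.05% to 21.1%, and an exon and intron DMR of EPHB3 rose from 47.2% to 80.2%. The intergenic gain and the gene DMRs thus had the same direction.

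The largest loss, at chr10:4872983-4873234, fell from 56.6% in epithelial cells to 13.9% in fiber cells over 14 sites, with a single-site error of 4.43 points. No other intergenic island or shore DMR lay within 10 kb of it. The next, at chr15:7110553-7110686, fell from 65.3% to 23.4% over 20 sites and had 3 losing neighbours, described below with FAM222A. The third, at chr23:4138650-4139014, fell from 72.0% to 35.8%, yet the nearest gene DMR, in an intron of STK40 (ENSGALG00000032925) 7581 bp away, rose from 61.7% to 78.2%. The other 5 were on chromosomes 15, 19, 15, 9 and 13, with changes from -35.8 to -32.4 points. All 8 began between 54.6% and 78.6%, higher than the largest gains. This contrast follows in part from the choice, since a large loss cannot start low and a large gain cannot start high.

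The area statistic sums the authors' test statistic over the sites of a DMR, and so it favours long and dense regions. The gain with the largest sum lay in an island at chr17:9820785-9821672 and rose from 10.7% to 31.3% over 148 sites. It was 2069 bp from an exon DMR of OLFML2A (ENSGALG00000001048), which encodes an olfactomedin-like secreted protein and which rose from 68.6% to 84.4%. It stood in a run of 4 island DMRs, and in all 4 the level rose, from between 5.71% and 23.1% to between 14.5% and 53.7%.

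The second was at chr10:3027929-3029098, with 157 sites in 1170 bp, and rose from 17.1% to 38.7%. It headed a run of 3 gains, of which both others had as nearest gene DMR a promoter DMR of STRA6 (ENSGALG00000001449), the membrane receptor that takes up retinol from its carrier protein. That promoter DMR rose from 45.7% to 71.8%. Then followed chr21:3975840-3977100, from 12.0% to 34.2%, the chromosome 11 region named above and chr9:13104694-13105955, from 8.85% to 27.1%. The last had 1262 bp and was also the third longest. The second longest, at chr7:11687341-11688698, rose from 43.9% to 75.5% and lay 3006 bp from an exon DMR of FZD7 (ENSGALG00000034973), a Wnt receptor, which rose from 12.5% to 35.7%.

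Some of the listed changes took place near the bottom of the scale. The gain with the lowest epithelial level, at chr8:14049090-14049772, rose from 2.15% to 12.6% over 64 sites with a single-site error of 1.68 points. At chr18:10054046-10054175 the level rose from 2.35% to 10.7%, and at chr17:6306533-6306803 from 2.39% to 8.55%. The loss with the lowest fiber level, at chr10:19888209-19888349, fell from 7.75% to 2.72%, a change of -5.02 points. At chr15:6340324-6340479 the level fell from 10.8% to 3.66%. The latter island stood less than 1 kb from a shore loss at chr15:6341055-6341689 that fell from 63.7% to 28.8%. At chr7:25492158-25492317 a shore fell from 23.8% to 5.44%. Apart from the loss at chr15:6341055-6341689, these regions differed between the cell types but stayed weakly methylated in both or became so in fiber cells.

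Losses were spread unevenly over the chromosomes. Chromosome 9 held most of the DMRs, 57, of which 16 were losses, and 71.9% were gains against 86.3% of the other DMRs on that chromosome. Without the 10 losses around SOX2 the share there was 87.2%. The 86.3% of the other DMRs still includes 5 losses annotated to SOX2 or its overlapping transcript. The locus was thus not left out on both sides. On chromosome 15 gains made up 63.0% of 27 DMRs (80.0% of the other DMRs), on chromosome 19 68.4% of 19 (88.7%), on chromosome 11 71.4% of 42 (87.8%) and on chromosome 13 73.0% of 37 (84.5%). On chromosome 21 gains made up 35 of 36 DMRs (92.8% of the other DMRs) and on chromosome 22 all 19 (91.9%). The share of gains was lower than that of the other DMRs of the same chromosome on 10 chromosomes, higher on 6 and equal on 1, which was chromosome 16 with 2 DMRs.

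**Figure D3:**
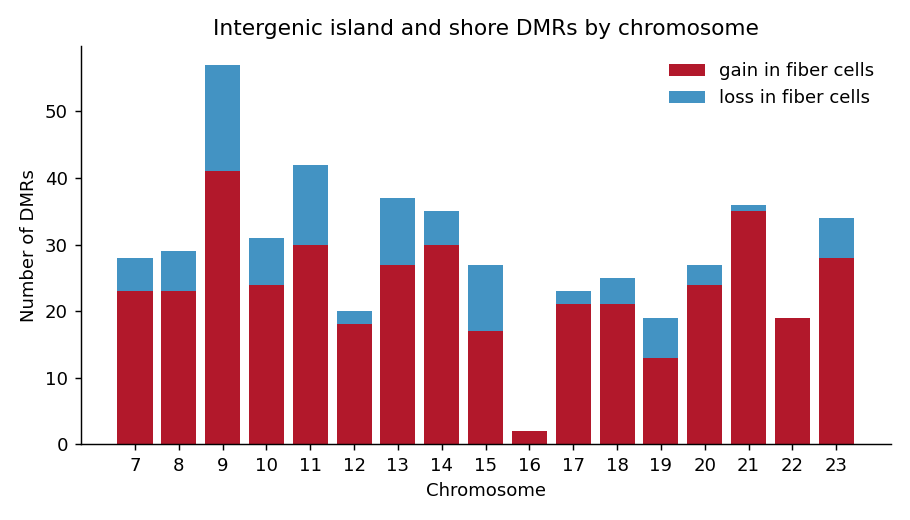
Number of intergenic island and shore DMRs on each of chromosomes 7 to 23, split into gains (red) and losses (blue) in fiber cells. Chromosome 9 holds 57, among them 16 losses, whereas chromosome 22 holds 19 gains and no loss.

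Many of the DMRs had close neighbours, as did DMRs at large. Of the 491, 295 (60.1%) stood in 98 runs in which neighbours were less than 10 kb apart, and 196 had no such neighbour. Joined in the same way, 63.1% of all DMRs of chromosomes 7 to 23 stood in runs. Of the 98 runs, 62 held gains only, 11 held losses only and 25 held both, whereas of the 718 runs of all DMRs 524 held gains only and 32 losses only. Among 197 pairs of adjacent DMRs under 10 kb apart, 163 (82.7%) had the same direction, against 88.1% of 1785 such pairs of all DMRs on these chromosomes. For pairs under 1 kb apart it was 92 of 102 (90.2%, against 95.3%), and under 100 kb 219 of 282 (77.7%, against 83.0%). These shares were not above those of the DMRs at large, among which gains take a larger share, and the difference was not tested. The authors' method smooths levels over neighbouring sites and merges near ones, which bears on the closest pairs. Neighbours of the same run are therefore not independent observations.

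The longest stretch of losses lay around SOX2, a transcription factor of the early lens and of neural progenitors (the locus was chosen after its values were seen). On chromosome 9 from 17007571 to 17033421, a span of 25.9 kb, 10 intergenic DMRs were all losses and all annotated to an island only. Within the span stood 5 further DMRs annotated to SOX2 (ENSGALG00000043460) or to its overlapping transcript (listed as SOX2OT_exon4, ENSGALG00000031436), and these were losses as well, which makes 15 consecutive losses.

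The intergenic DMRs of this run fell into low and higher levels. In 6 of the 10 the epithelial level was under 30%. The level fell from 15.6% to 6.87% at chr9:17007571-17007878, from 16.5% to 7.39% at chr9:17012238-17012584, from 17.9% to 7.17% at chr9:17016750-17017265 and from 16.9% to 7.09% at chr9:17030017-17030113. The remaining pair of low ones fell from 26.2% to 14.5% and from 26.7% to 10.5%. Single-site errors in these 6 were 1.61 to 2.77 points.

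The other 4 started above 50%. They fell from 62.6% to 41.3% at chr9:17016110-17016508, from 51.2% to 35.9% at chr9:17020411-17020648, from 57.4% to 29.9% at chr9:17021071-17021283 and from 53.9% to 39.4% at chr9:17033305-17033421. Higher and lower DMRs were interspersed along the span, and at chr9:17016110-17016508 and chr9:17016750-17017265 a level of 62.6% stood less than 1 kb from one of 17.9% in the same epithelial cells. The 5 gene DMRs inside the run began at 15.9% to 42.1% and ended at 6.65% to 17.1%. The DMRs at chr9:17016750-17017265 and chr9:17012238-17012584 were also among the 3 losses with the largest area statistic, through 106 and 91 listed sites, although their changes were -10.7 and -9.14 points.

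The run with most members behaved differently. On chromosome 11 from 17665565 to 17693120, a span of 27.6 kb with no gene DMR within 10 kb of any member, 12 DMRs alternated between 7 gains and 5 losses. From its start, a gain from 44.6% to 66.1% was followed by losses from 25.3% to 9.01% and from 54.3% to 35.9%. Then came a gain from 11.7% to 29.2%, a loss from 31.5% to 17.2% and a gain from 8.31% to 24.3%. Up to this point the direction changed at nearly each step.

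Farther along were losses from 64.8% to 42.6% and from 47.0% to 27.4%. The run ended with 4 gains, from 51.4% to 67.0%, from 12.4% to 32.6%, from 3.77% to 26.4% and from 27.4% to 49.98%. Changes were of like size in both directions, from 15.6 to 22.6 points in the gains and from -22.1 to -14.3 points in the losses, with single-site errors of 2.54 to 3.76 points. Starting levels overlapped between the directions, with 3.77% to 51.4% in the gains and 25.3% to 64.8% in the losses.

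**Figure D4:**
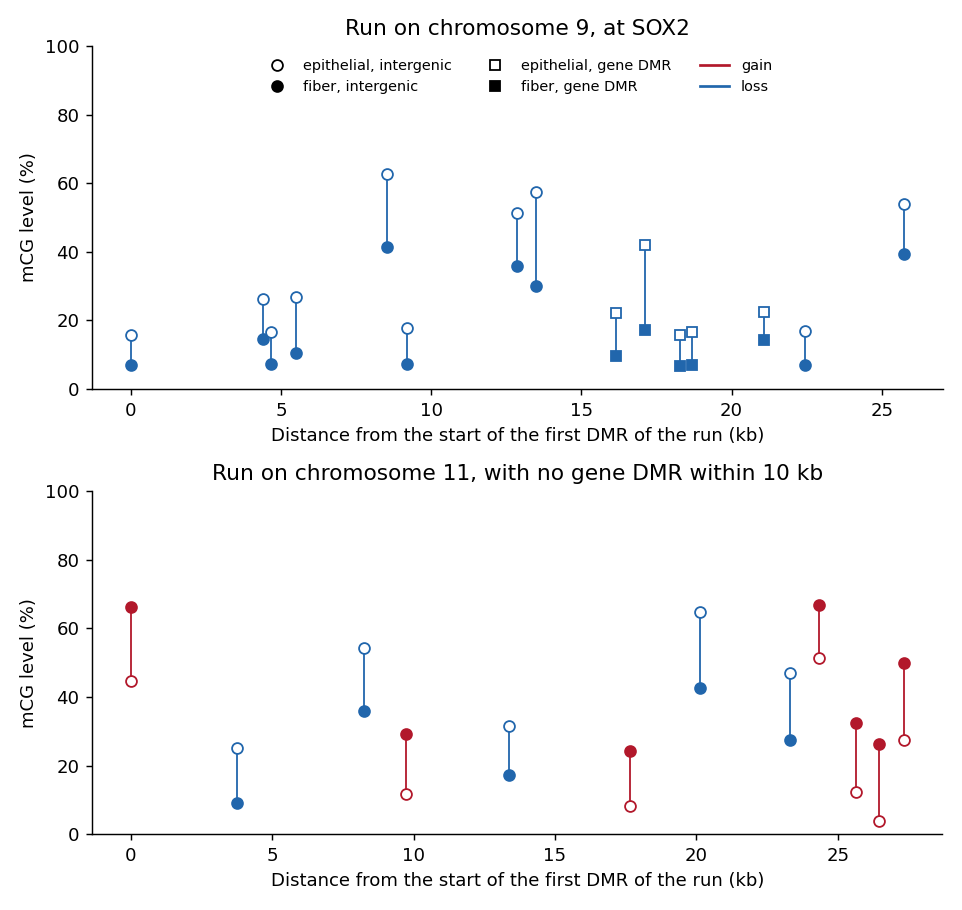
mCG level (vertical axis, percent) in epithelial cells (open symbols) and fiber cells (filled symbols) against distance from the start of the run (horizontal axis, kb) for the run around SOX2 and the run on chromosome 11. Circles are intergenic DMRs and squares DMRs annotated to SOX2 or its overlapping transcript, and all 15 fell in the upper panel whereas 7 rose and 5 fell in the lower.

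Runs of gains were more common. The longest had 8 members on chromosome 10, from 20390870 to 20405641 (this and the following runs were picked out after their values were seen). It lay between a promoter DMR of RASGRF1 (ENSGALG00000008262), an exchange factor that activates Ras, and a DMR at gga-mir-184 (ENSGALG00000018259), a microRNA abundant in lens and cornea of vertebrates. Levels rose in all 8, from 11.7% to 44.9% in epithelial cells and 29.8% to 64.4% in fiber cells, with changes of 16.8 to 26.3 points. The RASGRF1 DMR rose from 18.6% to 41.2% and the gga-mir-184 DMR from 3.21% to 15.6%. The DMRs at both ends thus had the direction of the 8 between them.

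Runs of 6 gains were found on chromosomes 12, 13 and 21. On chromosome 12 the nearest gene DMR was in BHLHE40 (ENSGALG00000008308), a basic helix-loop-helix repressor, at 3202 bp to 8630 bp, and changes were 6.53 to 32.8 points. On chromosome 13 from 1674607 to 1683528, all 6 were island DMRs with changes of 7.94 to 21.7 points, and 4 of them had as nearest gene DMR an intron DMR of CXXC5 (ENSGALG00000000884), whose zinc finger binds CG-rich DNA. Chromosome 21 held a run of 6 island DMRs near a promoter DMR of ZNF362 (ENSGALG00000026558), with changes of 9.34 to 21.8 points. A further run of 6, on chromosome 21 from 3971140 to 3981954, rose by 11.6 to 24.4 points and had no gene DMR within 10 kb. Epithelial levels inside these 4 runs spanned from 3.90% to 59.1%, so that weakly and more strongly methylated regions rose side by side.

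Examples of shorter runs were those at DMRTA2 and CASZ1. At DMRTA2 (ENSGALG00000031423), a DM-domain factor of the developing nervous system, 5 DMRs rose by 10.2 to 17.4 points, and exon DMRs of the gene rose from 2.88% to 10.5% and from 2.71% to 8.15%. Near a promoter DMR of CASZ1 (ENSGALG00000002888), a zinc finger factor, 5 DMRs rose by 19.3 to 27.3 points. Both runs held gains only.

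Runs of losses other than that around SOX2 were shorter. On chromosome 15 from 7106094 to 7113560, 4 DMRs fell from 53.5% to 31.0%, from 30.3% to 12.3%, from 65.3% to 23.4% and from 51.8% to 37.6%, and the 2 nearest to FAM222A (ENSGALG00000029944) lay within 10 kb of its promoter DMRs, which fell from 27.0% to 9.85% and from 24.7% to 7.84%. On chromosome 13 from 2075579 to 2079424, 4 island DMRs fell, with levels of 73.4% to 59.2%, 70.0% to 50.3%, 15.7% to 7.92% and 20.2% to 11.0%. That run had no gene DMR within 10 kb. It joined methylated and weakly methylated islands that shared the direction, with changes of -19.8 to -7.76 points. A run of 3 losses on chromosome 23 from 1956337 to 1961589 ranged from -22.5 to -15.2 points, and a run of 3 on chromosome 8 from 28839604 to 28849829 from -21.9 to -17.6 points. The gene DMRs nearest to the chromosome 8 run had the opposite direction. They rose from 40.5% to 61.5% at ENSGALG00000027565 and from 7.05% to 22.2% at PDE4B (ENSGALG00000011094).

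Opposite directions met at short distances too. The nearest pair, on chromosome 17, was 330 bp apart: chr17:8097945-8098114 fell from 80.2% to 52.9%, whereas chr17:8098445-8098611 rose from 28.2% to 54.7%. The levels of this pair were far apart in epithelial cells and close in fiber cells. On chromosome 18, 409 bp apart, a shore rose from 50.5% to 70.6% and an island fell from 81.1% to 62.6%. On chromosome 9, 439 bp apart, a shore rose from 13.1% to 32.9% while the DMR beside it fell from 50.2% to 25.6%.

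The other pairs of the nearest 5 were on chromosomes 7 and 9. On chromosome 7, 466 bp apart, chr7:22111851-22111905 rose from 10.8% to 27.3% and chr7:22112372-22112494 fell from 15.5% to 6.53%. Both had the promoter DMR of ASIC4 (ENSGALG00000011250), a member of the acid-sensing ion channel family, as nearest gene DMR, which rose from 18.0% to 41.9%. On chromosome 9, 777 bp apart, chr9:13099611-13099884 fell from 78.4% to 44.8% and chr9:13100662-13101124 rose from 56.0% to 79.8%. In all 5 pairs the DMR that fell started at the higher epithelial level and ended at the lower fiber level. This order was that of the set as well. Its losses started higher than its gains, with medians of 42.4% and 25.5%, and ended lower, with 18.7% and 46.9%.

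How the intergenic DMRs moved beside nearby genes was described through the nearest DMR that the table annotates to a gene, within 10 kb. Such a DMR was listed for 175 of the 491, at 109 genes or gene pairs, and for 316 there was none. It had the same direction as the intergenic DMR in 156 of 175 (89.1%). Several intergenic DMRs could have the same nearest gene DMR, as 6 did at BHLHE40, so the 175 are not separate comparisons. For gains this was 146 of 150 (97.3%), and for losses 10 of 25 (40.0%). Gene DMRs of chromosomes 7 to 23 and their nearest other gene DMR shared direction in 87.7% of 2073, in 93.4% where the former was a gain and in 35.3% where it was a loss. With the SOX2 run included, the intergenic shares thus lay near those between gene DMRs in each direction, and no more is read from them. Without that run, 4 of 19 losses (21.1%) had a gene DMR of the same direction, which is lower than the 35.3%. The 35.3% still includes the gene DMRs of the SOX2 locus, and the difference was not tested.

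**Figure D5:**
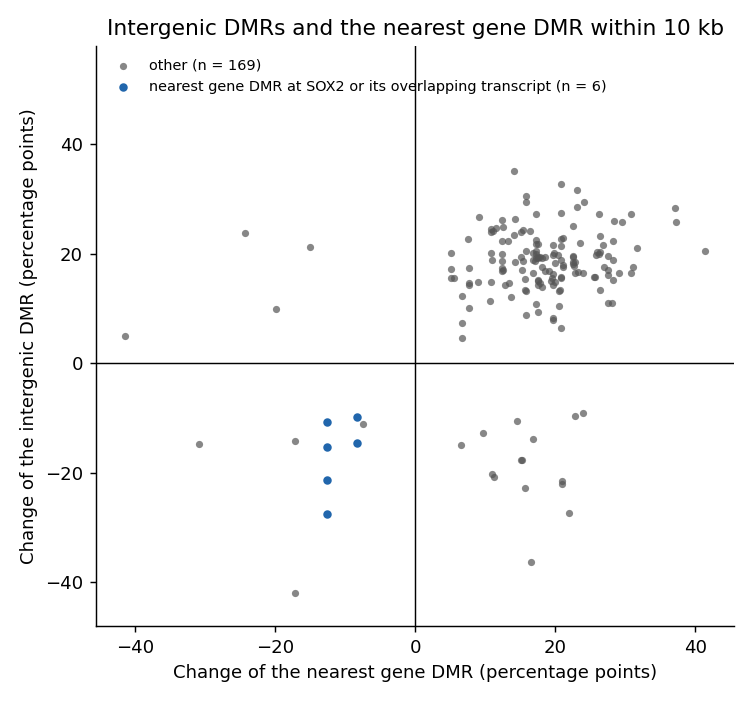
Change of the intergenic DMR (vertical axis) against the change of the nearest gene DMR within 10 kb (horizontal axis), both fiber minus epithelial in percentage points, for 175 intergenic DMRs. Most points lie in the upper right (146 shared gains), 10 lie in the lower left, of which 6 are at SOX2 (blue), and the remaining 19 have opposite directions.

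Examples of both kinds were picked out after their values were seen. At CDKN2C (ENSGALG00000010537), an inhibitor of cyclin-dependent kinases, an island DMR fell from 18.7% to 7.70%, and 185 bp away the exon DMR of the gene fell from 12.3% to 4.83%. At CRYBA1 (ENSGALG00000004035), which encodes a beta-crystallin of the lens, a gain from 51.5% to 67.4% lay 2169 bp from a gene DMR that rose from 34.7% to 60.4%. At CYR61 (ENSGALG00000008661), a secreted matrix-associated protein, a gain from 14.6% to 40.5% lay 845 bp from one from 12.7% to 49.9%. These regions moved with their gene DMRs.

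Opposite directions were seen in 15 losses and 4 gains. Beside FZD9 (ENSGALG00000041927), a Wnt receptor, a shore fell from 16.01% to 5.58% while a gene DMR 911 bp away rose from 6.88% to 21.4%. Beside TLE3, a Groucho-type corepressor, a loss of -22.8 points from 49.4% stood 6075 bp from a gene DMR that rose from 3.52% to 19.2%, while another intergenic DMR 8175 bp from that gene DMR rose with it, from 5.43% to 18.8%. The 4 gains were at HM13, KCNJ3, PDXDC1 and TNS1, where gene DMRs fell by between 15.0 and 41.5 points. At PDXDC1 an intergenic DMR on chromosome 14 rose from 3.93% to 8.97%, and a promoter DMR of the gene 7392 bp away fell from 65.8% to 24.3%.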

How the data were processed

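DNA of 3 epithelial and 3 fiber samples was treated with bisulfite and sequenced, trimmed with Trimmomatic and aligned to galGal6 with Bismark, and CASAVA is also named in the submitters' processing notes (versions not stated). The authors called DMRs with DSS, which smooths levels over neighbouring sites and tests replicates with a beta-binomial model. The mean mCG level of each cell type was deposited as a fraction, pooled over replicates. The authors' area statistic is a score, the sum of their Wald statistics over the sites of a DMR, and the column of differences (the authors' own comparison) served only for a check of the computed changes. The table has no columns of single samples, and the depth behind each level is unknown from it.

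The 13180 lines (551 exact repeats) were joined by DMR number to 7621 DMRs. Fractions were multiplied into percent, the change is fiber minus epithelial, and density is listed CG sites per 100 bp. A DMR was a member when annotated to an island or shore and to no part of a gene. Runs joined members less than 10 kb apart, and the nearest gene DMR was sought within 10 kb. No test was made, and counts and medians stand beside those of all DMRs. The join and the rule were tested on simulated data. Calculations used Python 3.11.15, NumPy 2.4.6, pandas 2.3.3, SciPy 1.17.1 and matplotlib 3.10.9.

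Members, lists and rules were chosen with earlier results of these data known. Named were the 8 gains and 8 losses with the largest change, the 5 gains and 3 losses with the largest area statistic, the 3 longest, the 3 gains with the lowest epithelial and the 3 losses with the lowest fiber level, the run with most members, the 5 nearest pairs of opposite direction, and genes with a DMR within 10 kb of these. Others are marked as picked out after their values were seen. No genome of the galGal6 build was used here, so no sequences are shown, and the reference gene table describes another assembly and was not used. The result for 1 withheld item is not reported here.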

Additional observations from a re-analysis of the deposited data

How the results depend on the processing

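The share of gains lay between 78.5% and 82.3% under every alternative run. The median gain and median loss could not change direction, since gains and losses are defined by their sign. Keeping changes of at least 20 points left 211 DMRs, with a median CG density of 10.6 per 100 bp, a median gain of 23.2 and a median loss of -25.4 points, median levels of 32.0% in epithelial and 49.5% in fiber cells, and 91.1% of adjacent pairs in the same direction. Keeping DMRs annotated to an island itself left 251, with a density of 15.5, a median gain of 16.3, a median loss of -15.0 and a median fiber level of 38.1%. The threshold removes small changes and the annotation removes sparse shores by construction. The cause of the other shifts was not tested. Requiring an area statistic no smaller than the table's median left 306, and a single DMR per run 294. Pairs under 1 kb apart shared direction in 90.2%. Leaving out the run around SOX2, chosen after seeing the data, left 481. The median loss was then -18.4 points (-17.7 with the run) and the median fiber level 43.7% (42.1%). The share of gains was 82.3% (80.7%), and adjacent pairs shared direction in 81.9% (82.7%). On chromosome 9 the share of gains moved from 71.9% to 87.2%. Losses whose nearest gene DMR was also a loss went from 10 of 25 to 4 of 19.

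No paired analysis was possible because the levels are pooled per cell type and carry no replicate number, and for the same reason no replicate was left out in turn. The depth behind the levels is unknown, only called DMRs are listed, and chromosomes without island annotation hold no member.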

Other observations

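Of the 491 DMRs, 20 also carried a repeat annotation, 16 of them gains and 4 losses. Their gains had a median change of 18.9 points, close to the 19.1 points of all gains of the set. The 4 losses were dense, with a median of 22.9 listed CG sites per 100 bp against 9.76 in the 16 gains.

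A run of 3 shore gains on chromosome 14 from 14642288 to 14647456 lay near the top of the scale, with epithelial levels of 70.9% to 84.8% and fiber levels of 83.2% to 89.4%, and changes of 4.62 to 12.3 points. On chromosome 17 a run of 3 island gains lay near the bottom, with epithelial levels of 6.23% to 7.49% and fiber levels of 11.4% to 16.3%.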
